A study of Ovis aries with 18 samples.

Results

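Of 28717 windows of 200 bases on the numbered chromosomes of the sheep genome that held 20 or more measured CpG cytosines, 27292 (95.04%) were unmethylated in the sperm of all 6 rams studied. These unmethylated windows were chosen by their measured values: the genome was divided into non-overlapping windows, the cytosines of both strands were counted, and the methylated share of all reads in the window had to be under 10% in each of the 6 rams. They were 13.9% of the 196856 windows with a listed cytosine on these chromosomes. They held 794205 of all 1850625 listed cytosines (42.9%), a total that includes the X chromosome and unplaced contigs. The other CpG-dense windows comprised 27 that were methylated at over 80% in each ram and 1398 that met neither rule.

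A CpG island is a stretch of DNA in which the dinucleotide CpG, depleted by mutation in most of a mammalian genome, has remained frequent. Many islands lie at the starts of genes and are kept free of methylation in the germ line, whereas CpG sites outside islands are mostly methylated in sperm. Reduced representation bisulfite sequencing (RRBS) reads the ends of restriction fragments rich in CpG sites, so that islands make up much of what it measures, and bisulfite turns unmethylated cytosines into bases read as thymine.

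The sperm came from Polypay rams, a breed of sheep. Control rams (Ram410, Ram423 and Ram444) ate a basal diet, and methionine-treated rams (Ram424, Ram498, Ram511, the order of values given without names) ate the same diet topped with 1.5 g (0.22%) of rumen-protected methionine, an amino acid coated so that it passes the rumen. Feeding lasted 77 days from a mean age of 88 days, and the ram was the replicate (n = 3 per diet). Embryos sired by these rams were flushed on day 8 and sequenced in pools of 5, with 6 pools per diet. Every listed cytosine had at least 10 reads in every ram, and coverage summed over cytosines was 45845774 reads in Ram410, 49936380 in Ram423, 45891151 in Ram444, 44504409 in Ram424, 75603721 in Ram498 and 61321968 in Ram511.

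Methylation in the unmethylated windows was far below the limit that chose them. The median level over windows was 0.457% in Ram410, 0.493% in Ram423 and 0.524% in Ram444 among control rams, and 0.527% in Ram424, 0.506% in Ram498 and 0.508% in Ram511 among methionine-treated rams. The diets overlapped, since Ram444 lay above Ram498 and Ram511. Unconverted cytosines are read as methylated, the conversion rate of bisulfite was not analysed here, and how much of levels this low was methylation was not tested. Pooled over all unmethylated windows, the methylated share of reads was 0.712% ± 0.0859 (SD, n = 3) in control rams and 0.752% ± 0.106 (SD, n = 3) in methionine-treated rams, a difference smaller than either SD. In the ram with the highest level, 14711 windows (53.9%) stayed under 1%, 23212 (85.1%) under 2% and 26364 (96.6%) under 5%. Each of the 27292 windows nevertheless had a methylated read in some ram.

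The depth behind a window was large compared with that behind a single cytosine. A median window had 637 reads in Ram410, 719 in Ram423, 642 in Ram444, 626 in Ram424, 1218 in Ram498 and 942 in Ram511, summed over its cytosines. With 3 methylated of 637 reads, as in a median window of Ram410, the 95% Wilson interval of the level ran from 0.160% to 1.38%, and with 6 of 1218 in Ram498 from 0.226% to 1.07%. For a window with no methylated read, the limit was set at 3 reads of the total and not by the Wilson interval. It was 0.471% at the median depth of Ram410 and 0.246% at that of Ram498. Such windows numbered 1925 (7.05%) in Ram410, 1310 (4.80%) in Ram423, 1560 (5.72%) in Ram444, 1680 (6.16%) in Ram424, 275 (1.01%) in Ram498 and 604 (2.21%) in Ram511. The fewest were thus in the 2 rams with the most reads. A read counts at each cytosine it spans, so that intervals and limits cover counting error only and treat linked cytosines as independent.

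Coverage within unmethylated windows was higher in Ram498 and Ram511 than in the other 4 rams. The median coverage of a cytosine in these windows was 23 reads in Ram410, 26 in Ram423, 23 in Ram444, 23 in Ram424, 45 in Ram498 and 35 in Ram511. In the 27 methylated windows, which also had 20 or more cytosines but a median of 21 against 27, it was 23, 25 and 21 reads in the control rams, and 21, 13 and 17.5 reads in Ram424, Ram498 and Ram511. The unmethylated windows therefore had 3.46 times the coverage of the methylated windows in Ram498 and 2 times in Ram511, against 1 to 1.10 times in the other rams. Against the 1398 dense windows of neither class the ratio was 1.25 in Ram498 and 1.17 in Ram511, and against windows with fewer than 20 cytosines it was 1.32 and 1.296. Those sparser windows also had more coverage in these 2 rams, with medians of 34 and 27 reads against 21 to 23 in the others. Unmethylated windows took 47.5% of all coverage in Ram498 and 45.4% in Ram511, and 40.9% to 42.6% in the other 4 rams. In the windows with fewer than 20 cytosines, 10.1% of pooled reads were methylated in Ram498 and 15.2% in Ram511. This share was 24.9% to 25.8% in the other 4 rams. Ram498 and Ram511 were both methionine-treated, while Ram424 of the same diet lay with the control rams. Whether diet had a part in this was not tested. Without Ram498 and Ram511, 27309 windows met the rule, and the part of coverage in the other results was not tested.

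The share of windows that were unmethylated rose with the number of cytosines listed in them. It was 17.2% for windows with 1 or 2 cytosines, 34.2% for 3 to 5, 60.8% for 6 to 9, 79.8% for 10 to 14 and 88.3% for 15 to 19. Among dense windows it was 92.6% for 20 to 24 cytosines, 95.1% for 25 to 29, 97.0% for 30 to 39, 98.2% for 40 to 49 and 99.5% (766 of 770) for 50 or more. The share methylated at over 80% in each ram moved the other way, from 53.1% for 1 or 2 cytosines to 0.211% for 20 to 24. Over all dense windows, the median level at 20 to 24 cytosines was 0.520%, 0.565% and 0.584% in the control rams in the order given and 0.619%, 0.554% and 0.579% in the methionine-treated rams. At 50 or more cytosines it was 0.431%, 0.445% and 0.566% in the control rams and 0.467%, 0.495% and 0.476% in the methionine-treated rams. These values were lower in every ram, least so in Ram444. The fall was not steady in Ram444, which had 0.547% at 25 to 29 cytosines, 0.523% at 30 to 39 and 0.529% at 40 to 49.

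The rule of 20 or more cytosines in 200 bases itself set CpG sites close together in unmethylated windows. The windows held 487831 distinct CpG sites, a median of 17 per window and at most 43, and 306374 of them (62.8%) were listed on both strands. The median distance between neighbouring listed sites was 6 bases (quartiles 3 and 11), and 18.3% of neighbours lay 2 bases apart. In the CpG-dense windows that were neither unmethylated nor methylated the median distance was 7 bases and 13.1% lay 2 bases apart, and in windows with 3 to 19 cytosines these values were 10 bases and 10.8%. The strands gave nearly the same levels, with methylated shares of 0.619% and 0.617% on the plus and minus strands in Ram410 and 0.871% and 0.868% in Ram424. They differed most in Ram498, with 0.666% and 0.659%.

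The unmethylated window with the most cytosines lay at chr20:46374401-46374600 (Oar_rambouillet_v1.0, as for every coordinate given) and held 76. Its level was 0.416%, 1.26% and 1.49% in Ram410, Ram423 and Ram444 and 0.499%, 1.15% and 1.46% in Ram424, Ram498 and Ram511, from 1276 to 2532 reads per ram. The diets overlapped, and the lowest ram of each diet was under 0.5%. A window with 75 cytosines at chr3:353201-353400 had 0.449%, 1.28% and 1.49% in the control rams in the same order and 0.653%, 2.38% and 2.18% in the methionine-treated rams. Ram498 and Ram511 were highest there and Ram410 lowest, with a single-window q of 0.851 for diet. At chr14:70797601-70797800, with 74 cytosines, 5 rams lay between 0.299% and 0.722% while Ram444 had 3.85%. Its methylated reads in Ram444 fell on 44 of the 74 cytosines, and the cytosine with the most held 4.55% of them. The 2 remaining windows of the 5 with the most cytosines, at chr24:8012401-8012600 with 75 and chr12:3076401-3076600 with 74, stayed at or under 1.56% in every ram.

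Unmethylated windows often adjoined. The 27292 windows formed 16958 runs, of which 10507 were single windows, 3940 had 2 windows, 1610 had 3 and 311 had 5 or more, and 61.5% of the windows adjoined another. Windows no more than 2000 bases apart formed 12405 groups with a median of 2 windows. The longest run spanned 12 windows and 461 cytosines at chr20:55074001-55076400. Its pooled level was 0.446%, 0.511% and 0.669% in Ram410, Ram423 and Ram444 and 0.514%, 1.13% and 0.619% in Ram424, Ram498 and Ram511. Ram498 was highest and the other 5 rams overlapped, and the highest level of any window of the run in any ram was 2.31%. The run ended in sparser windows that were low as well: the window before it, with 10 cytosines, had 1.08% to 4.95% over the 6 rams. The next 4 runs were 10 windows at chr5:114313001-114315000 and 9 windows each at chr1:13335401-13337200, chr17:81626401-81628200 and chr23:52339801-52341600, with pooled levels between 0.359% and 1.40%. The group with the most windows, 20 within 10200 bases at chr22:52945801-52956000, held no dense window that was not unmethylated, and its pooled levels were 0.436% to 0.652%.

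Number of cytosines and level both differed with position in a run. Inner windows of runs of 3 or more had a median of 31 cytosines and median levels of 0.421% to 0.486% over the 6 rams. Windows at the ends of these runs had 27 cytosines and 0.436% to 0.519%, and single windows had 25 cytosines and 0.493% to 0.596%. Every ram was lowest in inner windows and highest in single windows. The highest ram reached 5% in 1.11% of inner, 1.99% of end and 5.37% of single windows. Whether position mattered apart from the number of cytosines was not tested.

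Low methylation extended beyond the dense windows themselves. Among windows with 5 to 19 cytosines, which the rule did not use, 97.3% of the 20160 that adjoined an unmethylated window were under 10% in all 6 rams. This share was 92.7% for the next window out, 84.3% from 400 to 1000 bases, 67.3% from 1000 to 2000 bases and 49.5% from 2000 to 5000 bases, 44.4% from 5000 to 10000 bases, 47.1% from 10000 to 50000 bases and 49.05% beyond. Windows over 80% in all rams were 0% of those adjoining, 10.5% from 1000 to 2000 bases and 22.6% from 2000 to 5000 bases. Whether distance mattered apart from the number of cytosines in these sparser windows was not tested. The share of windows above 50% from 2000 to 5000 bases was 29.6%, 30.3% and 31.8% in Ram410, Ram423 and Ram444 and 31.2%, 28.2% and 28.6% in Ram424, Ram498 and Ram511. Of the 1398 dense windows of neither class, 112 (8.01%) adjoined an unmethylated window and 759 (54.3%) were over 10000 bases from one, and 0 of the 27 methylated windows adjoined one.

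Unmethylated windows occurred on all 26 numbered chromosomes. Their share of the dense windows was highest on chromosomes 25 (387 of 393, 98.5%), 22 (649 of 668, 97.2%) and 1 (2098 of 2163, 97.0%), and lowest on chromosomes 14 (1364 of 1525, 89.4%), 17 (983 of 1081, 90.9%) and 19 (760 of 822, 92.5%). Chromosomes 11 and 24 had the most unmethylated windows per 1000000 bases, 25.9 and 25.4, and chromosome 6 the fewest with 6.63. By 1000000 bases, the median was 6 windows, and the most, 144 of 177 dense windows, lay at chr17:81000001-82000000. The last 10% of the chromosomes held 21.2% of the unmethylated windows, 24.9% of windows with fewer than 20 cytosines and 47.5% of the dense windows of neither class. Outside the numbered chromosomes the same rule was met by 229 of 233 dense windows on the X chromosome (98.3%) and by 38 of 50 on contigs that are not placed on a chromosome (76.0%).

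The limit of 10% fell where few windows lay, as 928 dense windows had their highest ram from 5% to 10% and 355 from 10% to 15%. Just inside it, chr1:291570401-291570600 had 7.91%, 8.25% and 7.65% in Ram410, Ram423 and Ram444 and 9.97%, 5.66% and 8.59% in Ram424, Ram498 and Ram511. Similarly, the highest rams of chr18:24757401-24757600 and chr21:45568401-45568600 were Ram444 with 9.97% and Ram424 with 9.96%. Just outside, chr23:8033001-8033200 had 5.11%, 10.03% and 4.96% in the control rams and 8.30%, 5.54% and 8.56% in the methionine-treated rams. The next windows outside were chr20:44150201-44150400, where Ram424 had 10.03%, and chr20:9977401-9977600, where Ram444 had 10.04%. The diets overlapped in each of these 6 windows, and at chr20:9977401-9977600 Ram423 and Ram444 were above all 3 methionine-treated rams.

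The rule gave nearly the same windows with any ram left out of it. Windows chosen on 5 rams were under 10% in the ram not used in 99.97% of cases for Ram410, 99.88% for Ram423, 99.81% for Ram444, 99.53% for Ram424, 99.99% for Ram498 and 99.95% for Ram511. Of 27448 windows chosen on the control rams alone, 156 reached 10% in a methionine-treated ram, and of 27412 chosen on the methionine-treated rams alone, 120 reached 10% in a control ram. The highest level met in the rams not used was 43.6% and 52.5%, respectively.

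Differences between rams were concentrated in few windows and often in Ram424. The range over the 6 rams had a median of 0.755 points, a 95th percentile of 3.02 points and a maximum of 9.81 points. It exceeded 5 points in 396 windows, and the highest ram in these was Ram424 in 279, Ram444 in 59, Ram423 in 39, Ram511 in 10, Ram410 in 6 and Ram498 in 3. With Ram424 left out, 134 windows had a range over 5 points. The 99th percentile of the level was 7.01% in Ram424, against 3.88%, 5.37% and 5.48% in the control rams in the order given and 3.97% and 4.88% in Ram498 and Ram511. The cause of the higher upper tail in Ram424 was not tested.

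The windows of largest range differed in how far their pattern reached. At chr17:64312201-64312400 the level was 2.87%, 3.23% and 5.01% in Ram410, Ram423 and Ram444 and 9.90%, 0.0815% and 0.423% in Ram424, Ram498 and Ram511, from 523 to 1227 reads. Methionine-treated rams were thus both highest and lowest, and the windows on either side stayed at or under 0.750% in every ram. In Ram424 the methylated reads lay on 14 of its 26 cytosines. At chr1:298588601-298588800, Ram423 had 9.82% and Ram424 9.51% while Ram410, Ram444, Ram498 and Ram511 had 0.808%, 3.55%, 2.13% and 0.745%. The same 2 rams, 1 of each diet, stood out in the sparser window before it, with 14.5% and 11.7% against at most 1.70% in the other 4. At chr11:48296401-48296600, Ram423 had 9.58% against 0.570% to 4.08% in the other rams, and all of its 23 cytosines had methylated reads in Ram423. The 2 windows on its sides were also highest in Ram423, with 14.2% and 3.52%. At chr20:41300801-41301000 the range ran from 0.340% in Ram410 to 9.60% in Ram423, and at chr20:23743201-23743400 from 1.04% in Ram410 to 9.80% in Ram424, and the diets overlapped in both.

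Diet was tested in every window with at least 3 cytosines by a logistic regression of methylated and unmethylated reads, in which an overdispersion factor of at least 1 scaled the variance for differences among rams of a diet, a two-sided chi-square test and Benjamini-Hochberg q values. Of the 27292 unmethylated windows, 7 had q under 0.01 (0.0256%), against 0.151% of all 141939 windows tested. Lower levels with methionine were called in 3 of them, where 0.132% of all windows were called lower, and higher levels in 4, where 0.019% of all windows were called higher. In these 7 windows the overdispersion factor was 1 to 1.03. Their chi-square q values therefore hold almost no allowance for differences among rams and treat linked cytosines as independent. Differences in the 7 windows were small, and no unmethylated window differed by more than 4.15 points between the pooled reads of the diets. An unadjusted p under 0.05 was found in 1493 unmethylated windows (5.47%) and in 7.13% of all windows. The 3 rams of one diet lay entirely below those of the other with methionine lower in 986 unmethylated windows (3.61%), against 4.49% of all windows, and with methionine higher in 1548 (5.67%), against 4.44%. These shares are a description, because the limit of 10% in each ram had removed windows with large differences before the test.

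The calls differed with the test used and with the rams included. With an F test of the same fit, 0 unmethylated windows had q under 0.01 (238 of 27292 with an unadjusted p under 0.05, and 2131 of all 141939), and with limma on logit levels 0 did (771 with an unadjusted p under 0.05, and 7263 of all). Neither called any of all windows. Leaving out a ram gave 63 calls (0.231%) without Ram498, 61 of them higher with methionine, and 34 (0.125%) without Ram410, 30 of them lower, against 0.309% and 0.403% of all windows. Calls numbered 25 (0.0916%) without Ram424, 18 (0.066%) without Ram444, 18 (0.066%) without Ram511 and 7 (0.0256%) without Ram423, against 0.776%, 0.236%, 0.192% and 0.222% of all windows. Of the 7 windows, 2 had q under 0.01 with any of the 6 rams left out.

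The smallest p-value belonged to chr23:64148001-64148200, a window with 20 cytosines. Its level was 3.79%, 4.27% and 3.87% in Ram410, Ram423 and Ram444 and 0.407%, 1.22% and 0.436% in Ram424, Ram498 and Ram511. Every control ram was above every methionine-treated ram. The 95% Wilson intervals of control rams began at 2.38% or higher, and those of methionine-treated rams ended at 2.30% or lower. These intervals cover counting error only and not differences among rams, so that no conclusion on diet rests on them. The F test did not call this window (unadjusted F test p of 3.04e-03). The means were 3.98% ± 0.261 (SD, n = 3) and 0.687% ± 0.461 (SD, n = 3), from 449 to 738 reads per ram. The difference in pooled reads was -3.25 points, with a chi-square q of 5.13e-07, and all 20 cytosines were lower in the pooled reads of methionine-treated rams. The cytosines share reads and rams, and the window was picked for its p-value, so that their common direction is a description only. With each ram left out in turn, q was at most 5.67e-04.

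The next 2 windows lay close together on chromosome 18 and were higher with methionine. At chr18:69145601-69145800, with 25 cytosines, the level was 0.420%, 0.677% and 0.560% in Ram410, Ram423 and Ram444 and 2.44%, 2.55% and 3.35% in Ram424, Ram498 and Ram511, from 616 to 1488 reads. The diets did not overlap, and 19 of the 25 cytosines, which again share reads and rams, were higher in the pooled reads of methionine-treated rams. The pooled difference was 2.22 points with a chi-square q of 7.73e-07, and q was at most 8.91e-05 with any ram left out. At chr18:69145201-69145400 the level was 0.805%, 0.417% and 0.464% in the control rams and 2.31%, 2.06% and 2.53% in the methionine-treated rams, with a chi-square q of 3.72e-04. Without Ram423, its q was 0.0160.

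The sparser windows beside this pair followed the same order of diets. At chr18:69145001-69145200, with 10 cytosines, the levels were 0.643%, 0.929% and 0% in Ram410, Ram423 and Ram444 and 3.74%, 3.80% and 5.11% in Ram424, Ram498 and Ram511. At chr18:69146001-69146200, with 6 cytosines and 103 to 208 reads, they were 0.680%, 2.20% and 3.14% and 13.6%, 12.0% and 22.0% in the same order. Neither overlapped between diets, and both had q under 0.01 (chi-square q of 2.11e-05 and 4.25e-04). Directly after the pair, chr18:69145801-69146000 with 5 cytosines had 0%, 3.45% and 1.49% in the control rams and 6.56%, 9.42% and 4.72% in the methionine-treated rams, and was not called (chi-square q of 0.398). Windows on a shared stretch are not independent of each other.

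The other 4 windows called for diet had levels under 1.5% in every ram. At chr2:248468801-248469000, with 43 cytosines, the level was 0.123%, 0.103% and 0.199% in the control rams and 0.923%, 1.29% and 0.767% in the methionine-treated rams. At chr18:70126001-70126200, with 45 cytosines, it was 1.23%, 1.45% and 0.787% in the control rams and 0.385%, 0.258% and 0.428% in the methionine-treated rams. The diets did not overlap in either, with chi-square q of 8.43e-04 and 2.90e-03. With a ram left out, q of the first rose above 0.01 without Ram423 (0.0181) or Ram498 (0.0422), and q of the second without Ram410 (0.0270), Ram423 (0.0919) or Ram498 (0.129). The windows adjoining them were not called. For chr18:11520801-11521000, where methionine-treated rams were higher, and chr1:27542001-27542200, where they were lower, q was under 0.01 in 1 of the 6 analyses that leave out a ram.

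At single cytosines, the unmethylated windows were almost free of methylated sites. Of their 794205 cytosines, 768055 (96.7%) were under 10% in every ram and 325395 (41.0%) had no methylated read in any ram. None was called for diet (0 of 794205), where a call needed over 20 points of difference with q under 0.01, against 0.0184% of all cytosines. The rule for the windows had left little room for such a difference. The chi-square test gave 11906 of them (1.50%) and 54463 of all cytosines (2.94%) an unadjusted p under 0.05, and the F test also called 0. Without Ram424, 3 were called (1424 of all cytosines), and 1 was without Ram423 (523 of all) and without Ram498 (559 of all).

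A few cytosines were methylated within otherwise unmethylated windows. In total 59 reached 50% in at least 1 ram, and 10 did so in all 6. Of these 10, 6 lay within 2 stretches of chromosome 25, at positions 39827073, 39827317 and 39827397 and at positions 39838917, 39839085 and 39839143. The cytosine at 39827317 was methylated at 93.3%, 96.3% and 100% in Ram410, Ram423 and Ram444 and at 100%, 62.3% and 100% in Ram424, Ram498 and Ram511. Its window, chr25:39827201-39827400, had levels of 2.64%, 2.86% and 4.73% in the control rams and 3.61%, 3.50% and 3.25% in the methionine-treated rams. Ram498 was the lowest at the cytosine and lay within the other rams over the window, and the diets overlapped in both. Most of the 10 cytosines were likewise lowest in Ram498, as at 39839143 with 52.1%. The exceptions were 39827397, where Ram498 had 100%, and position 89014759 on chromosome 9, where it had 52.4% and Ram410 had 50%.

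The same stretches of chromosome 25 held the windows with the highest coverage. These were chr25:39838801-39839000, with 2989 to 9765 reads per ram, chr25:39839201-39839400, with 2186 to 6801, and chr25:39827201-39827400, with 2465 to 7421. The methylated cytosines were among their least covered: position 39827317 had a mean of 37.0 reads over the rams where the median cytosine of its window had 154. Position 25528055 on chromosome 1 had a mean of 24.5 reads against 106, whereas position 89014759 on chromosome 9 had 35.8 against 33.2. The levels at the former were 100%, 90.5% and 100% in the control rams and 100%, 55.1% and 100% in the methionine-treated rams in the order given. The opposite strand was listed for 1 of the 10 cytosines, the position on chromosome 9, where the plus strand had 50% to 70% and the minus strand 0% in all 6 rams.

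Gene names could be set beside unmethylated windows only where sites called for diet in these same rams had been annotated with a gene. Such sites were chosen on the values of these rams, so that their own difference is no finding here. Of the 166 sites, 0 lay inside an unmethylated window, where 42.9% of all listed cytosines lay, but the rule for the windows had left little room for them. Within 5000 bases of one lay 11 of the sites, a distance chosen after the values were seen. The share of all cytosines that lay so near was not computed. The nearest was an intronic site of MACROD1, which encodes an enzyme that removes ADP-ribose from proteins, on chromosome 21 at position 44195384. It had 0% in all 3 control rams and 12.0%, 20.9% and 26.8% in Ram424, Ram498 and Ram511. An unmethylated window 217 bases away, at chr21:44195601-44195800, had 0.574%, 0.831% and 1.56% in Ram410, Ram423 and Ram444 and 1.29%, 0.974% and 1.32% in Ram424, Ram498 and Ram511. Both diets were apart at the site and overlapped in the window.

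The same held near other genes. An intronic site of SIN3B, which encodes a scaffold of histone deacetylase complexes, had 57.7%, 55.6% and 56.0% in Ram410, Ram423 and Ram444 and 4.55%, 0% and 5% in Ram424, Ram498 and Ram511. Its nearest unmethylated window, 3242 bases away at chr5:6373401-6373600, had 0.938%, 0.862% and 1.23% in the control rams and 1.11%, 0.854% and 1.13% in the methionine-treated rams. Near ZNRF3, which encodes a ubiquitin ligase that removes Wnt receptors from the cell surface, a site had 91.9% ± 4.58 (SD, n = 3) in control rams and 36.9% ± 9.23 (SD, n = 3) in methionine-treated rams. The window 1308 bases away at chr17:77503601-77503800 had 0.485% ± 0.312 (SD, n = 3) and 0.551% ± 0.562 (SD, n = 3). A site near FOXF2, which encodes a forkhead transcription factor, had 97.6% ± 2.14 (SD, n = 3) and 53.7% ± 11.7 (SD, n = 3), and the window at chr20:55160401-55160600 had 1.02% ± 0.280 (SD, n = 3) and 1.19% ± 0.207 (SD, n = 3). In each of these windows the diets overlapped. On chromosome 23, a site without a named gene at position 63933955 had 100%, 96.0% and 96.3% in the control rams and 0% in all 3 methionine-treated rams. The window 4555 bases away at chr23:63929201-63929400 had 0.102%, 0.169% and 0.192% in the control rams and 0.282%, 0.377% and 0.420% in the methionine-treated rams. The diets did not overlap there, on 1 to 7 methylated reads per ram. Its chi-square q of 0.752 was the lowest when only the nearest unmethylated window of each site was compared.

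In the embryo pools, 13 of the 15 genes named for these sites were in the count table and 10 passed the filter of at least 15 counts in more than 3 pools. Total counts per pool ranged from 1017847 to 2398589. Pool 2 of Ram444 and pool 1 of Ram511 stood apart from the rest, with median Spearman correlations to the other pools of 0.582 and 0.5996 against 0.820 to 0.857 for the other 10 pools. The quasi-likelihood test of edgeR called 0 of the 10 genes at an FDR under 0.05, against 0% of the 16488 genes tested. An unadjusted p under 0.05 was found for 1 of them and for 1306 of all 16488 genes (7.92%), and the likelihood-ratio test, DESeq2 and the test without the 2 pools also called 0 of the 10, and 5, 16 and 1 of all genes, respectively. The gene with the smallest p of the 10 was SMPD4, which encodes a sphingomyelinase, with a lowest, median and highest level of 8.21, 29.3 and 45.9 CPM (counts scaled to equal library size) in pools sired by control rams and 33.0, 60.8 and 75.4 in pools sired by methionine-treated rams. The ranges overlapped. Of the 6 pools sired by methionine-treated rams, 4 were from Ram424, with 52.6, 75.4, 69.1 and 72.1 CPM, whereas the pools of Ram498 and Ram511 had 33.0 and 39.6, within the range of the control pools. The lowest control level was in pool 2 of Ram444, which stood apart. The fitted log2 fold change was 0.98, with an edgeR FDR of 0.585. ZNRF3 was the most abundant of the 13 with 99.3 ± 40.3 (SD, n = 6) and 85.5 ± 31.5 (SD, n = 6) CPM, and GPR25, which encodes an orphan receptor, had at most 2 counts in any pool. Several pools had the same sire and were not independent replicates.

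Several limits apply to these results. The tests of diet rest on 3 rams per diet, and age at sampling was not used here. The unmethylated windows were selected on the same values that are described, so that their low levels are a description and no test. Summed reads are not independent molecules, because a read counts at each cytosine it spans. Gene annotation of the build of the files was not used here, and windows are given by coordinates. Cytosines outside the measured fragments were not analysed here.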

How the data were processed

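Methylated and total read counts per CpG cytosine in 6 sperm samples and gene counts in 12 embryo pools were used as deposited by the authors, who had processed the reads with Trim Galore, Bismark, Trimmomatic and STAR. Levels were computed from counts of reads, and the ram was the replicate for sperm. Windows and tests were computed with Python 3.11.15, numpy 2.4.6, pandas 2.3.3 and scipy 1.17.1, and with R 4.3.3, limma 3.58.1, edgeR 4.0.16 and DESeq2 1.42.0. The windows described and the lists of named windows were chosen with earlier results of these data known. Windows were named by fixed rules: most cytosines, largest range, nearest the limit, highest coverage and every window called for diet. Genes were named only where the study's annotation gave one for a site within 5000 bases, and only positions and gene names were taken from it. Alternatives included an F test, limma, no overdispersion, other limits and each ram left out. Results at gene starts, sequence motifs and embryo levels of genes starting in the windows were not analysed here.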

Additional observations from a re-analysis of the deposited data

Results flagged for a closer look

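Single values far from the others of their group of 6 were found in 7 of 30 groups looked at. Chance gives about 1 in 20 groups only for independent, normally distributed values. The groups share pools and CPM was not on a log scale, so that this rate does not apply here. GPR25 was 0 in every pool sired by methionine-treated rams and could not be flagged there. Pool 1 of Ram444 had 85.7 CPM of SIN3B (next 55.1). Pool 1 of Ram511 had 148 CPM of ZNRF3 (next 86.1), 9.66 of MZT2B (next 2.92), 35.7 of LOC101122984 (next 9.64) and 21.2 of DPP3 (next 48.8). The median Spearman correlation was 0.582 for pool 2 of Ram444 (next 0.820) and 0.5996 for pool 1 of Ram511 (next 0.833).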

How the results depend on the processing

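The number of unmethylated windows was 58821 with at least 10 cytosines, 10415 with at least 30, 6577 with cytosines of at least 20 reads and 44048 with strands merged and at least 10 CpG sites, and it stayed at 26364 to 27860 with limits of 5% or 20%, shifted windows (27256), mean levels (27282) or a ram left out (27295 to 27421). Calls for diet in unmethylated windows, 7 of 27292, became 0 with the F test, 0 with limma, 547 without overdispersion, 2 of 22208 tested with cytosines of at least 20 reads and 20 at q under 0.05, stayed 7 with at least 5 cytosines, and ranged from 7 to 63 with a ram left out. For all windows the 215 calls of 141939 became 0, 0, 7637, 37 (of 59374), 409 and 136 (of 108114) in the same alternatives, and 273 to 1101 with a ram left out. Cytosines called in unmethylated windows went from 0 to 13 without overdispersion (5905 of all cytosines) and to 0 to 3 with a ram left out (446 to 1424 of all). Of the embryo genes named near the windows, 0 were called in all 18 alternatives. No paired analysis was possible because each ram ate 1 diet. Alternatives for results at gene starts were not analysed here.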
